A study of Homo sapiens with 2 samples.

Results

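Histone genes, histone variant genes and the factors that process histone mRNA or carry newly made histones were examined in 468 breast cancer cells after knockdown of THAP7-AS1. They were taken by gene symbol: replication-dependent histone genes (symbols H1-, H2AC, H2BC, H3C and H4C), variants (H1-10, H2AZ, MACROH2A, H3-3, H2AX and H2AJ), and 10 processing factors and chaperones. The symbols used comprise 92 that RefSeq lists as protein-coding, and 57 of them were measured among the 13017 genes listed in both libraries. The 57 are 38 replication-dependent histone genes, 9 variant genes and 10 factors. The other 35 symbols are not analysed here.

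The libraries were made from total RNA of breast cancer cells of the line 468, of epithelioid morphology, grown in L15 medium with fetal bovine serum. The knockdown library came from cells that had received a Smart Silencer (a commercial mix of several silencing oligonucleotides) against the antisense RNA THAP7-AS1, and the control library from cells labelled si-NC, a negative control. Cells were collected after 48 h, and each group has 1 library. Groups follow the genotype label, since the silencer stands in the treatment label of both samples.

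Replication-dependent histone genes supply the core histones H2A, H2B, H3 and H4 and the linker histone H1 while DNA is copied. Their genes lack introns and lie mostly in clusters, and their mRNAs usually end in a conserved stem-loop in place of a poly(A) tail. SLBP binds the stem-loop, and the U7 small nuclear ribonucleoprotein, which contains LSM10 and LSM11, directs cleavage just after it. Variant genes such as those for H3.3 and H2A.Z are expressed throughout the cell cycle from ordinary polyadenylated mRNAs. Some replication-dependent genes also give polyadenylated mRNA, in particular in cells that have left the cycle. Whether poly(A) RNA was selected for these libraries is not given in the sources used here.

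The stem-loop is shown because it is the feature that sets these mRNAs apart, and because the genes below are described by whether their annotated model holds it. The form sought was a stem of 6 perfect base pairs, beginning with GG, then 3 pyrimidines and T, that closes a loop of 4 bases. It was sought in the annotated 3′ UTR of GENCODE release 29, on the sense strand. It was found in 16 of the 57 genes, against 0.361% of 19415 protein-coding genes searched. Capitals mark the stem-loop, flanking bases are in lower case, and positions are on GRCh38.
H2AC8 (chr6:26217412-26217437, plus strand): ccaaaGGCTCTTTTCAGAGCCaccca
H2AC6 (chr6:26124664-26124689, plus strand): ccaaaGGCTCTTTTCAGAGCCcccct
H2AC13 (chr6:27808642-27808667, plus strand): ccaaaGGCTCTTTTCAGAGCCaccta
H2BC5 (chr6:26158582-26158607, plus strand): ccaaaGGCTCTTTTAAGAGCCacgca
H2BC4 (chr6:26123467-26123492, minus strand): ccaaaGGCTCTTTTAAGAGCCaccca
H3C10 (chr6:27810511-27810536, plus strand): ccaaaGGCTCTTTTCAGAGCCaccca
H4C8 (chr6:26285126-26285151, minus strand): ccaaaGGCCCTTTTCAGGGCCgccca
H4C5 (chr6:26204996-26205021, plus strand): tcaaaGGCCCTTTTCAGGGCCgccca
H4C11 (chr6:27824454-27824479, plus strand): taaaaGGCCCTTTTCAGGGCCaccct
H2AX (chr11:119094893-119094918, minus strand): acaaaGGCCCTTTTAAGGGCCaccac
It began 22 to 49 bases after the stop codon. Among the 16 genes the stem had 2 forms: the strand before the loop read GGCTCT in 10 genes, all of the H2A, H2B and H3 families, and GGCCCT in the other 6, which are 5 H4 genes and H2AX.

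With 1 library per group, the values have no replicate check and describe only these cultures. Values are FPKM, fragments scaled by gene length and library size, and ratios are log2((knockdown FPKM + 1)/(control FPKM + 1)), which understate the change of low genes. The FPKM of all genes summed to 213442 for knockdown cells and 213888 for control cells. A rough reckoning from low values gave 11143124 fragments in knockdown cells and 10941386 in control cells. Those totals were largely set by the window of values used, so they neither measure depth nor compare it between the libraries. THAP7-AS1 is not analysed here and gives no check of the knockdown; the neighbouring gene THAP7 was at 8.38 FPKM in knockdown cells and 2.71 in control cells. All 6 epithelial markers examined were present, from 12.4 to 1106 FPKM in knockdown cells and from 17.1 to 1057 in control cells. Of 12 markers of fibroblasts, leukocytes and endothelium, 3 were listed in the tables: COL1A1, CD68 and LYZ, at 0.866, 3.30 and 1.25 FPKM in knockdown cells and 0.874, 3.25 and 1.39 in control cells.

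Replication-dependent histone genes were mostly higher in the knockdown library. Of all 38 measured, 25 had a ratio above 0, 12 below 0 and 1 was listed at 0 in both libraries. The share of genes above 0 was 53.0% over all 13017 genes. The median ratio of the 38 was 0.29, against 0.01 over all genes. Of the 17 averaging 1 FPKM or more, 13 were above 0, against 53.1% of the 10925 genes of that level, and their median was 0.40 against 0.02. At least 1.5-fold higher were 5 of the 17 (H2AC7, H2AC8, H2BC5, H2AC6 and H2AC13), where 2.98% of all genes were. In control cells H2AC7 was at 0.819 FPKM and H2AC13 at 0.763, so both reached the mean of 1 FPKM only through the knockdown library. At least 2-fold higher were 2, H2AC7 and H2AC8, where 0.604% of all genes were and 0.807% of those with a mean of 1 to 5 FPKM. All of the 5 but H2AC6 have an exon length under 1000 bases. Of 136 other genes that short and averaging 1 FPKM or more, 13 were at least 1.5-fold higher and 9 lower. At 2-fold, 3 of the 136 were higher and 6 lower. H2AC8 was just under 2-fold, at ratios from 0.983 to 0.998, under each of the 4 other scalings tried. None of the 17 was 1.5-fold lower, where 2.46% of all genes were, and none 2-fold lower, where 0.668% were. For 17 genes, counts of 0 are near these shares. The FPKM of the 38 genes summed to 128.7 in knockdown cells and 104.7 in control cells, a ratio of 1.23. In whole-culture RNA, more cells that express these genes and more RNA per cell cannot be told apart. Since RNA selection is not given, more histone mRNA and a larger polyadenylated part of it cannot be told apart either.

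The 3 most abundant genes carried much of that sum. H1-2 and H2AC25 were higher and H2BC12 lower, and their FPKM summed to 66.8 in knockdown cells and 64.3 in control cells. The other 35 summed to 61.9 in knockdown cells and 40.4 in control cells, a ratio of 1.54. Depth limits the values of these low-level genes, and 15 of the 38 genes were estimated at under 10 fragments in each library. Fragment numbers were reckoned from FPKM, annotated length and the window-bound totals above. They are approximate and serve only to rank genes by support.

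**Figure D1:**
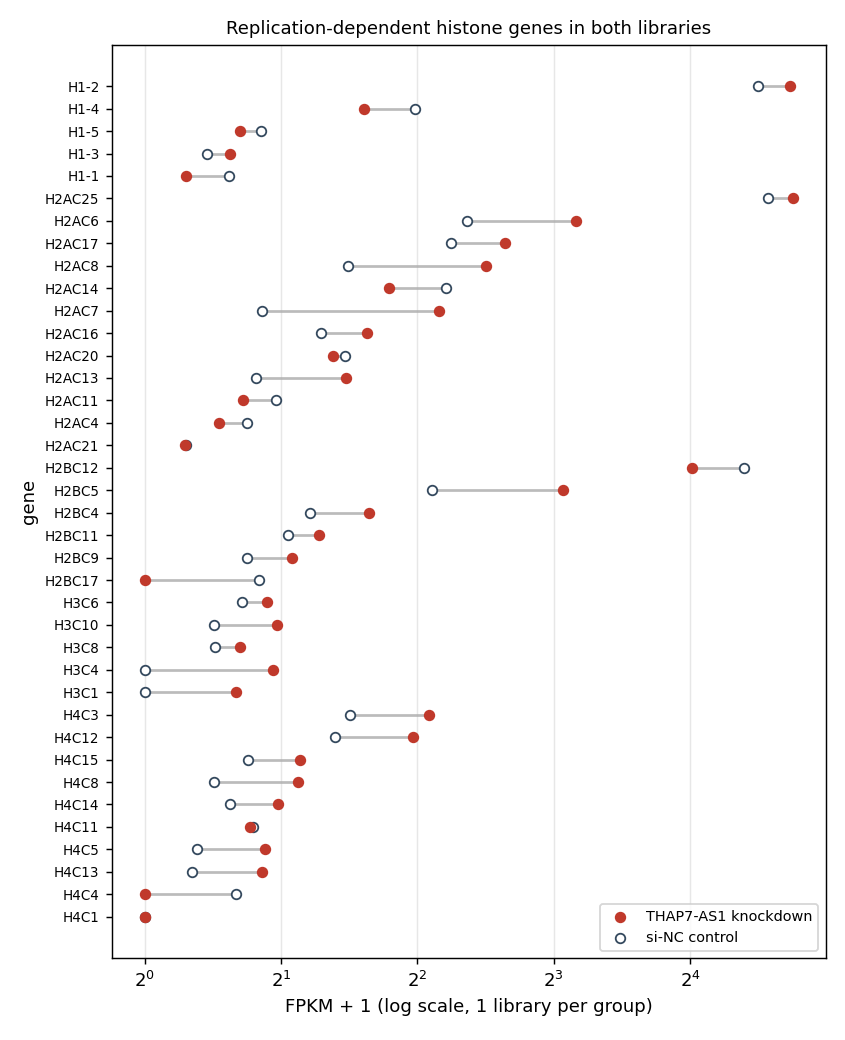
FPKM + 1 of the 38 replication-dependent histone genes on a log scale, grouped by family and ordered by mean level within it; filled points are the knockdown library, open points the control library, 1 library each. H1-2, H2AC25 and H2BC12 stand far above the others, and most of the wide gaps, such as those of H2AC7 and H2AC8, have the knockdown point on the right.

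The highest single ratios were those of H2A genes. The median over all 12 H2A genes was 0.26, against 0.28 for H2B, 0.47 for H3 and 0.44 for H4. These medians rest on genes of unlike level. A mean of 1 FPKM or more was found for 9 of 12 H2A and 4 of 6 H2B genes, but for 0 of 5 H3 and 2 of 10 H4 genes. H2AC7 was at 3.46 FPKM in knockdown cells and 0.819 in control cells, a ratio of 1.29 that ranked 29th of 10925 genes from the highest. That gene rests on about 15 fragments in the knockdown library and about 4 in the control library, and 98.0% of its 50-base words also occur in ENSG00000282988, a model that shares its exons and is not analysed here. H2AC8 was at 4.66 FPKM in knockdown cells and 1.81 in control cells, a ratio of 1.01, with no word shared with another gene. H2AC6, whose longest annotated 3′ UTR has 1187 bases, was at 7.97 FPKM in knockdown cells and 4.15 in control cells, a ratio of 0.80. With about 148 fragments in knockdown cells and 76 in control cells it is better supported than H2AC7 or H2AC8. H2AC13 was at 1.78 FPKM in knockdown cells and 0.763 in control cells, a ratio of 0.66, while H2AC14 went the other way at 2.46 FPKM in knockdown cells and 3.62 in control cells, a ratio of -0.42. These are near-copies: 83.7% of the words of H2AC14 occur in H2AC13, so reads could be divided between them, and together they were at 4.24 FPKM in knockdown cells and 4.39 in control cells.

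H2AC25, the most abundant H2A gene of this class, was at 25.99 FPKM in knockdown cells and 22.8 in control cells, a ratio of 0.18. H2AC17 was at 5.26 FPKM in knockdown cells and 3.76 in control cells, but 86.3% of its words occur in a model of H3C12 whose exons overlap it. H2AC16 was at 2.09 FPKM in knockdown cells and 1.45 in control cells. H2AC20 was at 1.60 FPKM in knockdown cells and 1.77 in control cells. The remaining H2A genes, H2AC11, H2AC4 and H2AC21, were under 1 FPKM in both libraries, with ratios from -0.24 to -0.0041. In all, 7 of 12 H2A genes were above 0, and the FPKM of the 12 summed to 56.6 in knockdown cells and 42.8 in control cells. For this count and those of the families below, the share above 0 over all genes was 53.0%.

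Among 6 H2B genes, 4 were above 0. H2BC5 was at 7.37 FPKM in knockdown cells and 3.30 in control cells, a ratio of 0.96, with about 72 fragments in knockdown cells and 31 in control cells. H2BC4 was at 2.14 FPKM in knockdown cells and 1.31 in control cells and H2BC11 at 1.43 FPKM in knockdown cells and 1.07 in control cells. The most abundant H2B gene, H2BC12, was lower at 15.2 FPKM in knockdown cells and 20.0 in control cells, a ratio of -0.38. Of its 50-base words 74.1% occur in other genes, mostly in H2BC12L, which is not analysed here. Because H2BC12 outweighs the others, the H2B sum was level, at 27.2 FPKM in knockdown cells and 27.1 in control cells. H2BC9 was at 1.11 FPKM in knockdown cells and 0.681 in control cells, and H2BC17 was listed at 0 in knockdown cells and at 0.788 in control cells.

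All 5 H3 genes were above 0, each under 1 FPKM in both libraries. They summed to 3.96 FPKM in knockdown cells and 1.49 in control cells. H3C10 was at 0.961 FPKM in knockdown cells and 0.420 in control cells, H3C6 at 0.863 FPKM in knockdown cells and 0.642 in control cells and H3C8 at 0.626 FPKM in knockdown cells and 0.429 in control cells. H3C4 was at 0.917 FPKM and H3C1 at 0.595 in the knockdown library, and both were listed at 0 in the control library. All words of H3C4 occur in ENSG00000282988, the model named above with H2AC7, which also shares exons with H3C4. Values this low correspond to about 3 to 26 fragments per gene in the knockdown library, so the direction of any single H3 gene is weakly supported. Among the 2092 genes whose mean was under 1 FPKM, 52.2% were above 0.

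Of 10 H4 genes, 7 were above 0 and 2 below. H4C3 was at 3.24 FPKM in knockdown cells and 1.84 in control cells, a ratio of 0.58. H4C12 was at 2.91 FPKM in knockdown cells and 1.64 in control cells, a ratio of 0.57, but all of its words occur in H4C11, which was level at 0.712 FPKM in knockdown cells and 0.738 in control cells. The neighbours at the other locus, H4C14 and H4C15, are copies of each other as well, and both were higher: H4C14 at 0.968 FPKM in knockdown cells and 0.540 in control cells, and H4C15 at 1.21 FPKM in knockdown cells and 0.691 in control cells. H4C8 was at 1.18 FPKM in knockdown cells and 0.420 in control cells, and H4C5 at 0.842 FPKM in knockdown cells and 0.307 in control cells. Their sequences are distinct, with no word shared. H4C13 was at 0.812 FPKM in knockdown cells and 0.272 in control cells. H4C4 was listed at 0 in knockdown cells and at 0.589 in control cells, and H4C1 was the gene listed at 0 in both. The H4 sum was 11.9 FPKM in knockdown cells and 7.03 in control cells.

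Of 5 linker histone genes 2 were above 0, and their median ratio was -0.15. H1-2, the most abundant of them, was at 25.6 FPKM in knockdown cells and 21.5 in control cells, a ratio of 0.24. H1-4 was lower at 2.05 FPKM in knockdown cells and 2.95 in control cells, a ratio of -0.37. H1-1, H1-3 and H1-5 were under 1 FPKM in both libraries, at ratios from -0.32 to 0.17. Whether the linker genes differ from the core families was not tested.

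**Figure D2:**
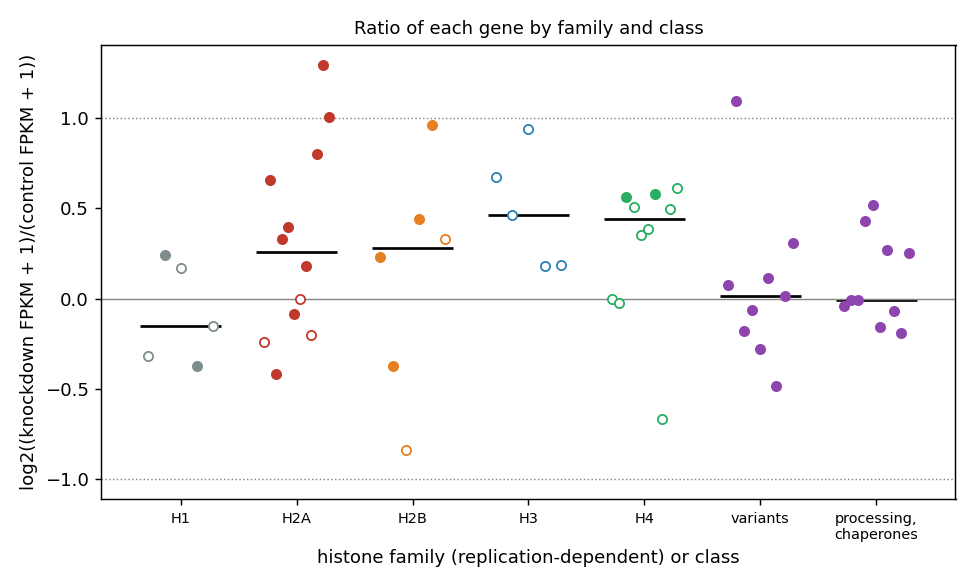
The log2 ratio of knockdown over control for each gene, by family for replication-dependent genes and then by class; filled points average 1 FPKM or more, open points less, the bar is the median over all points of a column, and dotted lines mark 2-fold. The H3 and H4 medians, 0.47 and 0.44, lie above the H1 median of -0.15 and above those of variants, 0.02, and of processing factors and chaperones, -0.01. All 5 H3 genes and 8 of the 10 H4 genes average under 1 FPKM.

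Genes with near-copies and genes without both had more ratios above 0 than below. The 10 replication-dependent genes that share over 50% of their words with another gene had 7 ratios above 0, and the 28 others had 18. Among the 10, FPKM summed to 34.8 in knockdown cells and 32.6 in control cells, a ratio of 1.07. Among the 28, FPKM summed to 93.9 in knockdown cells and 72.1 in control cells, a ratio of 1.30. By location, 22 of 33 genes in the chromosome 6 clusters were above 0 and 3 of 5 on chromosome 1. Over all genes 53.0% were above 0.

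The genes were also grouped by their annotated 3′ end. Of the 15 replication-dependent genes whose model holds the stem-loop printed above, 14 were above 0, where 53.0% of all genes were. Their median ratio was 0.44, and FPKM summed to 58.4 in knockdown cells and 39.0 in control cells. A mean under 1 FPKM was found for 9 of the 15 and for 12 of the 23 described next, so many of these directions are weakly supported. The exception was H4C11, at 0.712 FPKM in knockdown cells and 0.738 in control cells. Of the 23 whose model holds none, 11 were above 0 and 11 below, with a median of 0, and their FPKM summed to 70.3 in knockdown cells and 65.7 in control cells. In 19 of these 23 the model ends at the stop codon, so no 3′ UTR could be searched, and 9 of the 19 were above 0. The groups also differ in model length, with a median of 1487 bases where the stem-loop was found and 393 where it was not. This grouping was chosen after the values had been seen, and the part of model length in it was not tested.

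In 11 of the 15 genes an annotated transcript runs more than 60 bases past the stem-loop, and all 11 were above 0, at ratios from 0.18 for H3C6 and H2AC25 to 0.80 for H2AC6. Of the 11, 8 averaged under 1 FPKM, and H4C14 and H4C15 among them are copies of each other. H2AC6, H2BC9, H3C8, H4C5 and H4C8, among others, have annotated ends over 1000 bases beyond it. In H2AC13, H2AC8, H2BC5 and H4C11 the stem-loop transcript ends within 60 bases of it, and ratios were 0.66, 1.01, 0.96 and -0.02. FPKM per gene does not say which of the transcript ends was present in either library. H2AX, the variant gene with a stem-loop, was lower, at 75.2 FPKM in knockdown cells and 85.4 in control cells.

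**Figure D3:**
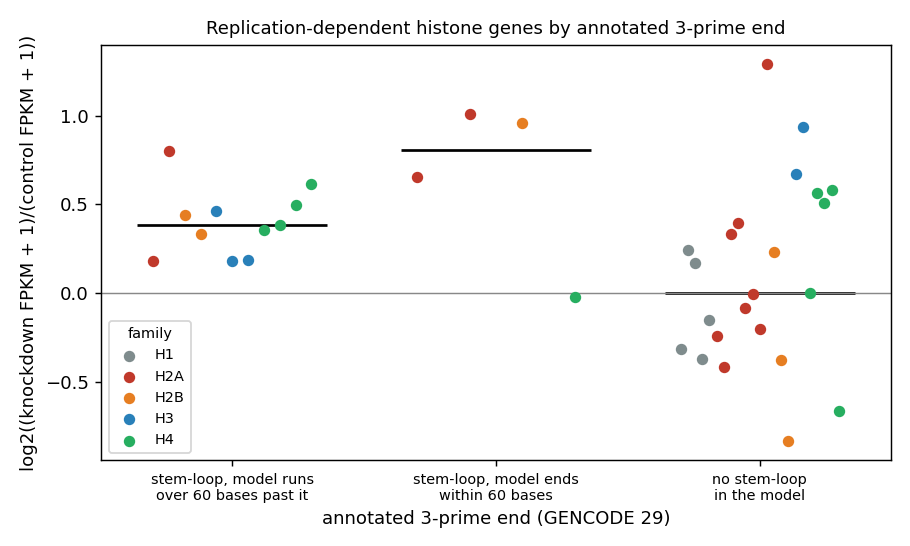
The log2 ratio of knockdown over control for each replication-dependent histone gene, by the 3′ end of its GENCODE 29 model, with points coloured by family and the bar at the median of a column. The 11 genes whose model runs on past the stem-loop all lie above 0, and the 23 without a stem-loop in the model lie on both sides of 0. Of the 11, 8 average under 1 FPKM, as do 12 of the 23.

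For comparison, 229 other genes whose models have a single exon had 134 ratios above 0 and a median of 0.03. Partly the same, 216 other genes with an exon length under 1000 bases had 108 above 0 and a median of 0.00. At a mean of 1 FPKM or more, 99 of 168 single-exon genes were above 0, with a median of 0.04. At least 1.5-fold higher were 3 of them and 1.5-fold lower 2. Of 136 short genes at that mean, 82 were above 0, with a median of 0.09. At least 1.5-fold higher were 13 of these 136 and 1.5-fold lower 9. Over all genes averaging 1 FPKM or more, 53.1% were above 0, 2.98% at least 1.5-fold higher and 2.46% 1.5-fold lower. Without that limit 53.0% were above 0. The 29 measured genes listed for DNA replication and S phase had 13 ratios above 0 and a median of -0.01. At least 1.5-fold lower were 3 of them, where 2.46% of all genes were. At least 1.5-fold higher were 0, near the background of 2.98%. Whether the 29 genes follow the timing of histone mRNA was not tested. RRM2, a subunit of ribonucleotide reductase, was at 24.4 FPKM in knockdown cells and 47.0 in control cells, and RFC3 at 11.0 FPKM in knockdown cells and 17.8 in control cells. PCNA, the sliding clamp, was at 273 FPKM in knockdown cells and 224 in control cells and POLE2 at 4.33 FPKM in knockdown cells and 3.32 in control cells. The part of cell cycle position in the histone ratios was not tested.

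Promoters of these genes were read from RefSeq on GRCh38.p14, as 250 bases before to 50 after each start, for 36 of the 38 genes. The octamer ATTTGCAT, a binding site of POU2F1 (OCT1) known for its role in H2B transcription, was in 5 of 6 H2B promoters on either strand, against 1.80% of 27305 promoters. It is shown in capitals in the promoters of the H2B genes, whose transcription it is known for; in H2BC17 it lies on the other strand and reads ATGCAAAT.
H2BC4 (chr6:26124032-26124059, minus strand): ttcatacctcATTTGCATagctctgccc
H2BC9 (chr6:26251555-26251582, plus strand): ttaagcacctATTTGCATaaaagaccta
H2BC11 (chr6:27132825-27132852, minus strand): tcttcaccttATTTGCATaagcgattct
H2BC12 (chr6:27146887-27146914, minus strand): tcttcaccttATTTGCATgagaggtcct
H2BC17 (chr6:27893266-27893293, plus strand): cttcctcttaATGCAAATgagctttctg
It was also in 10 of 12 H2A promoters; H2A and H2B genes often lie back to back, so that windows can overlap. It was in none of the 8 H4 and 5 H1 promoters searched. CCAAT was in 29 of the 36 promoters and in 35.7% of all, and TATAAA in 24 of the 36 and in 11.95% of all, on either strand. H2BC5, the H2B gene with the highest ratio, had no octamer of exactly these letters in its window, and the 5 that had it ran from -0.84 for H2BC17 to 0.44 for H2BC4. POU2F1 itself was at 2.28 FPKM in knockdown cells and 1.26 in control cells. A match of letters is a description and not evidence of binding.

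Variant histone genes had more summed FPKM than the replication-dependent genes measured. They made up 77.4% of the summed histone FPKM in knockdown cells and 79.8% in control cells. How RNA was selected is not given, and mRNAs without a poly(A) tail may be missed. These shares therefore need not reflect mRNA levels. Of 9 variant genes, 5 were above 0 and 4 below, where 53.1% of all genes averaging 1 FPKM or more were above 0. The median ratio was 0.02, which turned to -0.025 without H2AJ. The highest ratio was that of H2AJ, an H2A variant gene outside the clusters that is known to accumulate in senescent human fibroblasts with DNA damage. H2AJ was at 66.3 FPKM in knockdown cells and 30.5 in control cells, a ratio of 1.09 that ranked 45th of 10925 genes. It was the 3rd most abundant of the 9 variants in knockdown cells and the 8th in control cells, and it shares no words or exons with another gene. It was the only variant past 2-fold. Without it the other 8 variants summed to 374 FPKM in knockdown cells and 383 in control cells. The share of H2AJ in the variant sum was 15.1% in knockdown cells and 7.37% in control cells.

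H2AX and the H2A.Z genes had ratios below 0. H2AX, whose phosphorylated form marks DNA breaks, was at 75.2 FPKM in knockdown cells and 85.4 in control cells, a ratio of -0.18. H2AZ1 was at 57.4 FPKM in knockdown cells and 60.1 in control cells and its paralogue H2AZ2 at 30.1 FPKM in knockdown cells and 36.8 in control cells; both encode H2A.Z, found at promoters. The macroH2A genes, whose proteins carry a large domain and are linked to silent chromatin, had ratios above 0 as deposited: MACROH2A2 at 56.1 FPKM in knockdown cells and 45.2 in control cells, a ratio of 0.31, and MACROH2A1 at 12.04 FPKM in knockdown cells and 11.90 in control cells. The ratio of MACROH2A1, 0.02, turned to -0.00063 when libraries were rescaled without the 100 most abundant genes.

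The pair of genes that encode the same H3.3 protein had ratios of opposite sign. H3-3A was at 73.3 FPKM in knockdown cells and 67.8 in control cells, a ratio of 0.11. H3-3B was at 21.5 FPKM in knockdown cells and 30.5 in control cells, a ratio of -0.48 and the lowest of the variants. Summed, the pair was nearly level at 94.8 FPKM in knockdown cells and 98.3 in control cells, with H3-3A giving 77.3% of it in knockdown cells and 69.0% in control cells. Exons of 13 of the 57 genes, among them H3-3B, MACROH2A2 and NPAT, overlap another gene on the opposite strand, and without stranded counts such reads cannot be told apart. The linker variant H1-10 was at 48.1 FPKM in knockdown cells and 45.5 in control cells.

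**Figure D4:**
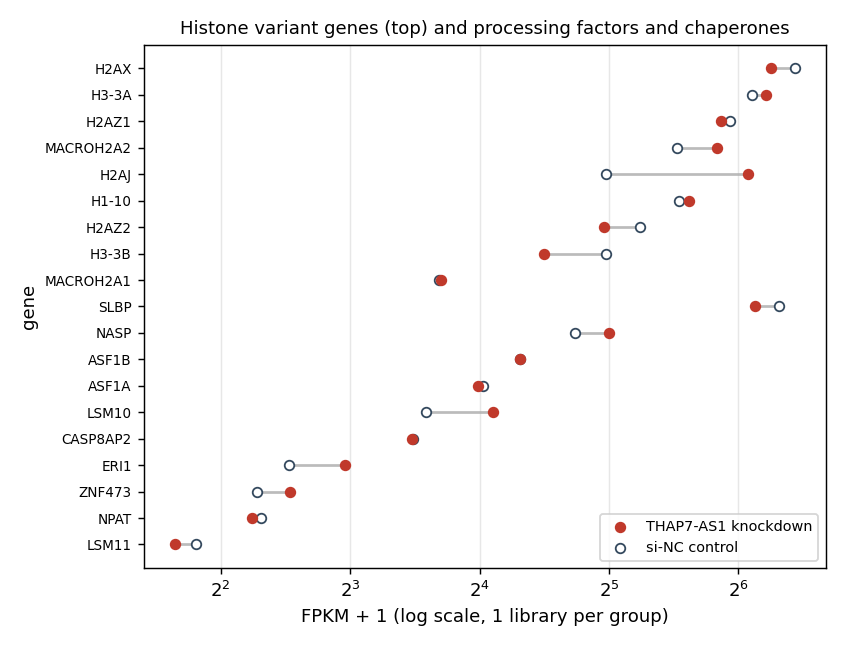
FPKM + 1 of the 9 variant genes (top) and of the 10 processing factors and chaperones (below), on a log scale, ordered by mean level within each class; filled points are the knockdown library, open points the control library, 1 library each. H2AJ has the widest gap, with 66.3 FPKM in knockdown cells and 30.5 in control cells.

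Among the factors of histone mRNA processing, the highest ratios were those of LSM10 and ERI1. SLBP, the stem-loop binding protein, was the most abundant of them at 68.8 FPKM in knockdown cells and 78.6 in control cells, a ratio of -0.19. The U7 subunits differed in direction: LSM10 was at 16.2 FPKM in knockdown cells and 11.0 in control cells, a ratio of 0.52, whereas LSM11 was at 2.14 FPKM in knockdown cells and 2.51 in control cells, a ratio of -0.16. ERI1, the exonuclease that trims histone mRNA ends and takes part in their decay, was at 6.78 FPKM in knockdown cells and 4.77 in control cells, a ratio of 0.43. ZNF473, a zinc finger protein that binds the U7 particle, was at 4.79 FPKM in knockdown cells and 3.86 in control cells. NPAT, the coactivator that switches on histone genes downstream of cyclin E and CDK2, was at 3.73 FPKM in knockdown cells and 3.96 in control cells. CASP8AP2, known as FLASH, which links LSM11 to the cleavage complex, was at 10.1 FPKM in knockdown cells and 10.2 in control cells.

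Of the histone chaperones, NASP, which holds reserves of H3 and H4, was at 31.1 FPKM in knockdown cells and 25.7 in control cells, a ratio of 0.27. ASF1A and ASF1B, which pass H3 and H4 on to the assembly factors, were level: ASF1A was at 14.9 FPKM in knockdown cells and 15.3 in control cells, and ASF1B at 18.83 FPKM in knockdown cells and 18.92 in control cells. Over the 10 factors and chaperones, 4 ratios were above 0, where 53.1% of all genes were. Their median was -0.01 and their mean 0.10, opposite in sign. None of the 10 passed 1.5-fold, which 2.98% of all genes did in the higher and 2.46% in the lower direction, so that a count of 0 is near the background.

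**Figure D5:**
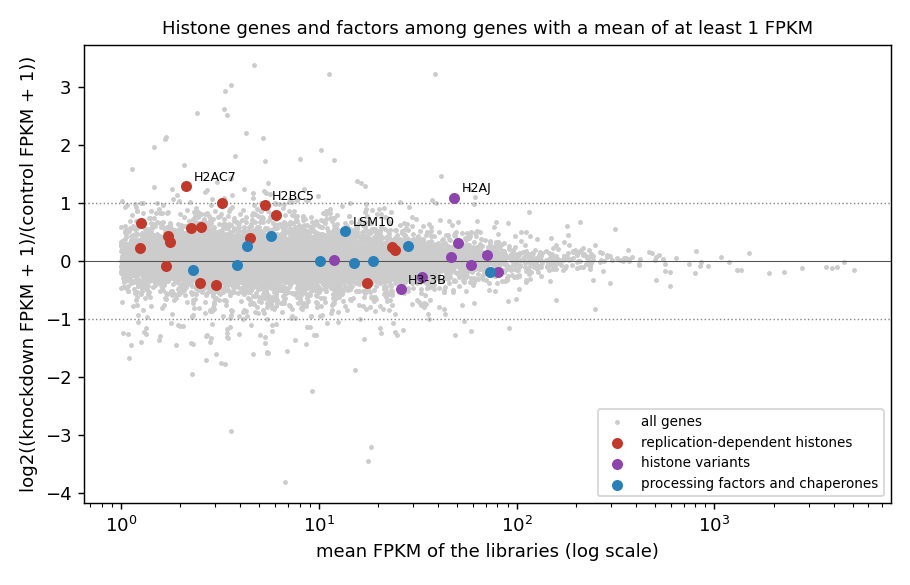
The log2 ratio of knockdown over control against the mean FPKM of the libraries on a log scale, for the 10925 genes averaging 1 FPKM or more (grey) and for the 36 histone genes and factors among them (coloured by class); dotted lines mark 2-fold. H2AJ stands out at a mean near 48.4 FPKM, while the high replication-dependent genes lie at means of a few FPKM.

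Genes that act with these factors were described by lists, with values for the highest and lowest ratios. For comparison with each list, the share of ratios above 0 over all genes was 53.0%. The 11 genes of the 3′ end cleavage complex had 7 ratios above 0 and a median of 0.04. SYMPK, a scaffold of that complex, was at 12.01 FPKM in knockdown cells and 9.70 in control cells, and CPSF3, its endonuclease, was at 39.7 FPKM in knockdown cells and 34.4 in control cells. CSTF2 was at 25.9 FPKM in knockdown cells and 30.5 in control cells, and CPSF4 at 4.58 FPKM in knockdown cells and 5.03 in control cells. Of the 7 Sm protein genes, most of which also serve the U7 particle, 6 were above 0. SNRPD2, whose place an LSM subunit takes in U7, was past 2-fold at 34.8 FPKM in knockdown cells and 16.6 in control cells. SNRPE was at 51.1 FPKM in knockdown cells and 46.1 in control cells. SNRPB was at 231 FPKM in knockdown cells and 234 in control cells and SNRPD1 at 31.1 FPKM in knockdown cells and 30.5 in control cells, the lowest ratios.

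Among 19 genes of histone mRNA turnover and cap binding, 12 were above 0 and the median was 0.04. DCP2, the decapping enzyme, was past 2-fold lower, at 3.09 FPKM in knockdown cells and 8.47 in control cells. MIF4GD, known as SLIP1, which bridges SLBP to the translation machinery, was at 6.37 FPKM in knockdown cells and 3.19 in control cells, a ratio of 0.82. LSM7 was at 12.5 FPKM in knockdown cells and 8.96 in control cells, and SRRT, a partner of the cap-binding complex, at 34.1 FPKM in knockdown cells and 47.2 in control cells.

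The 15 genes of histone gene transcription had 6 ratios above 0 and a median of -0.13. CCNE2 and CCNE1, the E cyclins that activate NPAT with CDK2, were the lowest: CCNE2 was at 6.87 FPKM in knockdown cells and 9.76 in control cells, and CCNE1 at 13.002 FPKM in knockdown cells and 16.881 in control cells. POU2F1, given above, was the highest, followed by E2F3 at 11.9 FPKM in knockdown cells and 9.62 in control cells. Of 25 histone deposition genes 16 were above 0, with a median of 0.05. The highest were SRCAP, an ATPase that exchanges H2A.Z into nucleosomes, at 15.3 FPKM in knockdown cells and 11.2 in control cells, and ATRX, a partner of DAXX in H3.3 deposition, at 10.3 FPKM in knockdown cells and 7.78 in control cells. The lowest were HJURP, the chaperone of the centromeric H3 variant, at 27.05 FPKM in knockdown cells and 35.61 in control cells and RBBP7 at 15.9 FPKM in knockdown cells and 20.9 in control cells.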

How the data were processed

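RNA sequencing of 1 knockdown and 1 control library was analysed. The deposited tables give FPKM per gene, per the file headers; the authors used cutadapt, HISAT2 2.0.5 and StringTie with hg19, per the submitters' processing notes. What annotation was used, whether reads kept their strand and how RNA was selected is not given in the sources used here, so overlapping antisense genes cannot be told apart. StringTie divides reads between copies by estimate. Genes were joined by identifier; 12903 of 13017 had a symbol. GENCODE release 29 (GRCh38, 12933 matches) gave models and sequences by identifier only.

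Ratios used a pseudocount of 1 FPKM, a mean of at least 1 FPKM and a rule of size of 2-fold. With 1 library per group no test was made. Values are given for every member averaging 1 FPKM or more and for some below it; for lists, for the highest and lowest ratios. One variant gene that the rule takes is not reported here and is left out of the members. Members and lists were chosen with earlier results of these data known. One fragment was taken as FPKM times length of 89.7 (knockdown) and 91.4 (control), medians over 14 genes with 1 transcript in knockdown and 10 in control cells, in a window of 80 to 100; of lower values under about 5 fragments, 30.4% in knockdown and 35.2% in control cells lay within 0.1 of a whole number, so fragment numbers are rough. Values without steps would also give medians inside that window. Sequence copies were found as shared words of 50 bases. Scripts ran in Python 3.11.15 (pandas 2.3.3, numpy 2.4.6, scipy 1.17.1, matplotlib 3.10.9) and were tested on simulated data. Alternatives changed the pseudocount, filter, scaling, fold, summary and members.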

Additional observations from a re-analysis of the deposited data

How the results depend on the processing

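The median ratio of replication-dependent histone genes, 0.40, was 0.21 with a pseudocount of 5, 0.29 with no filter and 0.24 with a mean of at least 5 FPKM. It stayed above 0 under the alternatives tried, those chosen after seeing the data included (without near-copies, without genes sharing exons, or with genes at 10 or more estimated fragments). Their summed ratio, 1.23, was 1.14 for a mean of 5 FPKM or more and 1.54 without the 3 most abundant genes. The median of processing factors and chaperones, -0.01, had 0.10 as its mean. The median of variants, 0.02, turned to -0.00063 when libraries were rescaled without the 100 most abundant genes and to -0.025 without H2AJ, where their summed ratio, 1.06, was 0.98. The 3 histone genes at least 2-fold higher became 5 with a pseudocount of 0.1, 1 with a pseudocount of 5, 1 with a mean of at least 5 FPKM, 6 at 1.5-fold and 0 at 3-fold, and 2 under each of the 4 other scalings, where H2AC8 lay between 0.983 and 0.998. For all genes the counts of 66 higher and 73 lower were 140 and 126 when 0.1 was added, 19 and 14 when 5 was added, and 31 and 36 for a mean of 5 FPKM or more. At 1.5-fold they were 326 and 269, and at 3-fold 20 and 15. Larger added values shrink low ratios, and higher limits pass fewer genes, by construction; for other differences the cause was not tested. Single members gave 216 ratios with other pseudocounts or scalings, of which 204 stayed within the spread of genes of similar level, 11 lay beyond it and 1, that of MACROH2A1, turned to -0.00063. Depth limits genes of a few FPKM most. No paired analysis was possible because each group has 1 library.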
